A study of Mus musculus with 12 samples.

Results

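Dll1 and 9 further genes of the Notch pathway were followed across 4 groups of mouse epiblast stem cells (EpiSCs), a primed pluripotent cell type derived from the post-implantation epiblast. The members were the ligand genes Dll1, Dll3 and Jag1, the receptor genes Notch1, Notch2 and Notch3, the receptor-modifying enzyme gene Lfng, the nuclear effector gene Rbpj and the target genes Hes1 and Hey1. They were chosen by name, with earlier results of these data known, among them the Dll1 change with XAV939 alone. Each was read from the probe annotated to that gene alone, with the highest mean over all arrays where a gene had several such probes. All 10 were found among 19938 genes measured. Only Rbpj had 2 such probes, and the other Rbpj probe, with a mean of 3.85, lay under the background measure given below.

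The study looked for genes downstream of a pair of compounds that act on Wnt signalling. CHIR99021 blocks the kinase GSK3, so that beta-catenin is no longer marked for destruction. XAV939 blocks tankyrase, so that Axin accumulates and beta-catenin is destroyed. All cells were EpiSCs of genetic background 129, and per the series design they were starved of serum for 12 h before treatment, although a growth medium with 10% serum is also recorded for every sample. The 4 groups of 3 arrays were untreated cells, cells with CHIR99021 at 3 µM, cells with XAV939 at 2 µM, and cells with both compounds at those doses. CHIR99021 was given for 2 h. For XAV939 the sample labels give 2 h and the design text 4 h, and which is right is not known here. Whether the 3 samples of a group were separate cultures is not said in the labels, so the spread behind the p-values may be technical.

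Notch signalling passes between touching cells. A ligand of the Delta or Jagged family on one cell binds a Notch receptor on its neighbour, the receptor is cut by proteases, and its freed intracellular part enters the nucleus, where it joins RBPJ at target genes such as Hes1 and Hey1. Fringe enzymes, of which lunatic fringe (the product of Lfng) is one, add sugars to the receptor and so alter which ligands it answers. In the mouse embryo Dll1, Dll3, Lfng and Hes genes are known from the presomitic mesoderm, where they act with Wnt signalling in the segmentation of the body axis.

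The DNA just before the start of Dll1 and of Lfng is shown because these are the genes that passed the test of XAV939 and of CHIR99021 over all 12 arrays. RefSeq's promoter table for GRCm38.p6 held 10 start windows for 8 of the 10 genes, with no entry for Hes1 or Hey1. Dll1 has 2 annotated starts on the minus strand of chromosome 17, and Lfng has 1 on the plus strand of chromosome 5. Each line gives the 250 bases before a start, from 5′ to 3′ along the gene's strand. Capitals mark letters that match one of 4 motifs on either strand.
Dll1, downstream start, chr17:15375824-15376073: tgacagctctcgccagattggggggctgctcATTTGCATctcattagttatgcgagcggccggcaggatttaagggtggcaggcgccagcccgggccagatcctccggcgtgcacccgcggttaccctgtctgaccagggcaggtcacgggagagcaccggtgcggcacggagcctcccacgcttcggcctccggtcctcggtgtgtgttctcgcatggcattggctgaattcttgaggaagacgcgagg
Dll1, upstream start, chr17:15376933-15377182: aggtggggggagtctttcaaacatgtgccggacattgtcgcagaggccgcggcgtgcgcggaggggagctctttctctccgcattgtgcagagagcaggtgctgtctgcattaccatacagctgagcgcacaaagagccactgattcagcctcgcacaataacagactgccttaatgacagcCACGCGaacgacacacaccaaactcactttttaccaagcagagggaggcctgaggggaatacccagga
Lfng, chr5:140607091-140607340: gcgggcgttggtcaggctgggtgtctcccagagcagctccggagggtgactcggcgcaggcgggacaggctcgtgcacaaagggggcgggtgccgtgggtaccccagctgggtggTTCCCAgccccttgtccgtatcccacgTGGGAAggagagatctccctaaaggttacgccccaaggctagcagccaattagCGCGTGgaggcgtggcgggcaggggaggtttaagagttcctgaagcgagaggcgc

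The motifs were the RBPJ core TGGGAA, the TCF/LEF motif CTTTGAT, the octamer ATTTGCAT that POU-family factors such as OCT4 bind, and CACGCG, a motif bound by HES repressors. The RBPJ core was found in the Lfng window at 135 and at 108 bases before the start and in both Rbpj windows. The Rbpj windows overlap and share a match. Of all 32851 windows of this length 21.6% hold the core. The octamer stood 219 bases before the downstream Dll1 start, and 1.6% of all windows hold it. CACGCG stood in 4 of the 10 windows, those of Dll1 (upstream start), Jag1, Notch2 and Lfng, against 7.62% of all windows. The GC content of these 4 windows was 56% to 72%, and the shares over all windows are not matched for it. No window of the 8 genes held CTTTGAT, which 3.21% of all windows hold. The motifs do not contain each other, and a match of letters is a description of the sequence alone.

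Expression is given as the deposited log2 values, whose base was taken from their range of 2.52 to 14.28. A change is a difference of group means on that scale, and a value compares arrays for 1 probe and not 1 gene with another. A change was called at an adjusted p under 0.05, from limma's moderated test on all 12 arrays with Benjamini-Hochberg adjustment over all 19938 genes within a comparison. Background was taken from 1194 olfactory and vomeronasal receptor genes, whose means had a 95th percentile of 4.94, and 11592 genes, with all 10 members among them, had means above it. Array medians ran from 5.22 to 5.27. All 12 markers of primed epiblast, such as Pou5f1, Fgf5 and Otx2, were above background. Of 7 presomitic mesoderm markers 2 were above it. The mean of that list per array was 4.56 to 4.62 in untreated cells, 4.52 to 4.61 with CHIR99021, 4.45 to 4.57 with XAV939 and 4.44 to 4.5 with both. Of 5 endothelial and blood markers 0 were above background, and their mean was 4.51 to 4.56 untreated and 4.42 to 4.45 with both. Endoderm markers (4.94 to 5.03 and 4.85 to 4.88) and fibroblast markers (4.99 to 5.06 and 4.9 to 4.98) were also lower with both. For the primed epiblast, naive and neural lists these 2 groups overlapped. Of 10 naive pluripotency markers 5 were above background, namely Klf2, Klf4, Klf5, Tbx3 and Tfcp2l1, and Zfp42, Esrrb, Dppa3, Nr0b1 and Prdm14 were below it. Of 6 endoderm markers 3 were above background, and of 8 fibroblast markers 3. With both compounds against untreated, 7558 of the 11592 genes above background had a positive change, but only 9449 of all 19938 genes. Dim genes were thus lower more often in general, and whether the lower list means go beyond this was not tested. In samples of whole cultures, fewer cells of a type and less RNA per cell cannot be told apart either.

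**Figure D1:**
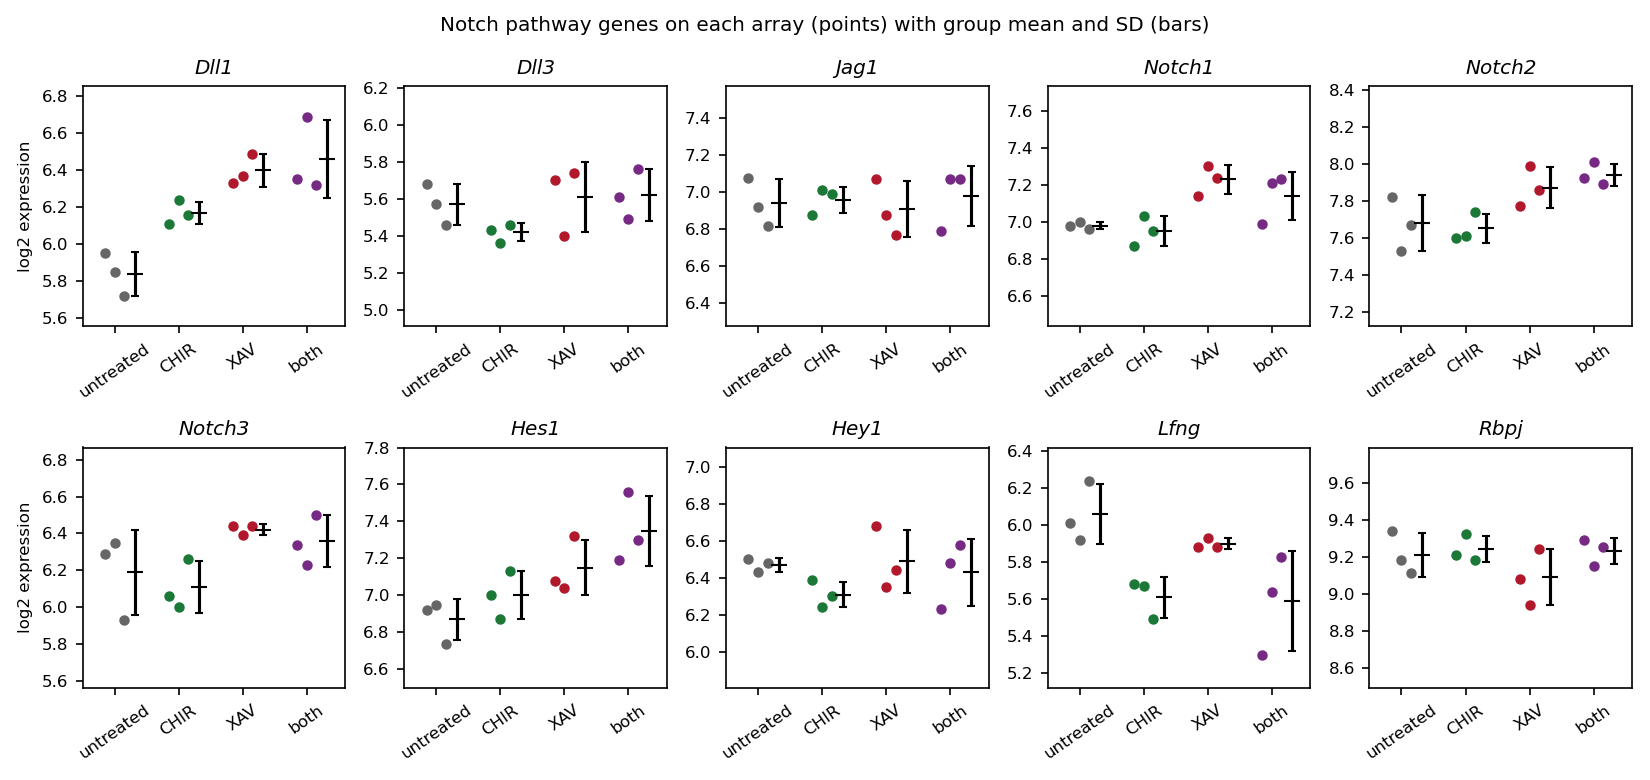
Log2 expression of each of the 10 genes (y axis, log2) in the 4 groups (x axis), with 1 point per array and bars for the group mean ± SD of 3 arrays. Each panel spans the same range about the midpoint of its own lowest and highest value. The 6 Dll1 points with XAV939 lie between 6.32 and 6.69, all above the 6 without it, and the 6 Lfng points with CHIR99021 lie between 5.30 and 5.83, all below the 6 without it.

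Dll1, a ligand gene of the Delta family, was higher on every array with XAV939 than on any array without it. In untreated cells Dll1 read 5.95, 5.85 and 5.72, a mean of 5.84 ± 0.12 (SD, n = 3 here and for every group). With CHIR99021 it read 6.11, 6.24 and 6.16, a mean of 6.17 ± 0.06. The CHIR99021 arrays thus all stood above the untreated arrays, as they did for 8.09% of all genes.

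With XAV939 alone Dll1 read 6.33, 6.37 and 6.49, a mean of 6.40 ± 0.09. With both compounds it read 6.35, 6.69 and 6.32, a mean of 6.46 ± 0.21, and replicate 2 was the highest of all 12 arrays. These 2 groups overlapped each other, and both lay above the CHIR99021 group. For 9.48% of all genes the XAV939 arrays all stood above the untreated ones, for 13% the arrays with both compounds stood above the untreated ones, and for 8.92% they stood above the arrays with CHIR99021.

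Over the 6 arrays with XAV939 against the 6 without it, Dll1 rose by 0.42 on the log2 scale (SE 0.07, 95% interval 0.28 to 0.57), a fold of 1.34 (limma adjusted p = 0.0316). It was the only member called in that comparison, in which 0.331% of all genes were called and 0.211% were called higher. All 42 genes called higher were among the 11592 above background. Groups of 6 that did not overlap, with the higher values under XAV939, were found for 1.01% of all genes and among the members for Dll1 alone. The call ended without untreated replicate 2 or 3, CHIR99021 replicate 1 or 2, any 1 XAV939 replicate, or replicate 2 of both compounds, with changes of 0.36 to 0.46 and adjusted p of 0.04 to 0.0923 over all 12 omissions.

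Those 6 against 6 arrays hold both single comparisons of XAV939, which share no array with each other. XAV939 against untreated gave Dll1 a change of 0.56 (SE 0.10), second of all genes by p, which did not pass (unadjusted p = 2.95e-05, limma adjusted p = 0.155). No gene was called there (0% of all genes), and 11.2% had an unadjusted p under 0.05. With array weights 8 of 19938 genes were called, with Dll1 the 1 member among them (0.54, limma adjusted p = 0.0454). Both compounds against CHIR99021 alone gave 0.29 (SE 0.10, 95% interval 0.08 to 0.49), which did not pass either (unadjusted p = 0.00962, limma adjusted p = 0.317; 0.0251% of all genes called). The difference between these changes, the interaction, was -0.27 (SE 0.14, 95% interval -0.57 to 0.02). That was the smallest unadjusted interaction p of the 10 members, 0.064, and it did not pass (limma adjusted p = 0.965). No gene was called for the interaction (0% of all genes), and 4.94% had an unadjusted p under 0.05.

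Both compounds against untreated gave the widest Dll1 change, a rise of 0.62 (SE 0.10, 95% interval 0.41 to 0.83), a fold of 1.54 (limma adjusted p = 0.0113). In this comparison 1.13% of all genes were called and 0.818% called higher. All 163 genes called higher were among the 11592 above background, as all members are. The call ended without untreated replicate 3 (0.56, adjusted p = 0.063) and without replicate 2 of both compounds (0.50, adjusted p = 0.0558). CHIR99021 alone gave 0.33 (SE 0.10), which did not pass (limma adjusted p = 0.192; 0.421% of all genes called), and adding CHIR99021 to XAV939 gave 0.06 (95% interval -0.15 to 0.26; limma adjusted p = 0.886; 0.236% of all genes called). In the order of group means, untreated, CHIR99021, XAV939 and both, the last 2 did not differ beyond their spread.

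The other ligand genes did not pass in any of the 8 comparisons. Dll3, a divergent Delta family member known in the mouse to act inside the cell on Notch signalling, had group means of 5.57 ± 0.11 in untreated cells, 5.42 ± 0.05 with CHIR99021, 5.61 ± 0.19 with XAV939 alone and 5.62 ± 0.14 with both. Its XAV939 change over 6 against 6 arrays was 0.12 (95% interval -0.02 to 0.27). Jag1, a ligand of the Jagged family, had means of 6.94 ± 0.13, 6.96 ± 0.07, 6.91 ± 0.15 and 6.98 ± 0.16 in the same order. The interval of its XAV939 change over 6 against 6 arrays ran from -0.16 to 0.14, and all its groups overlapped.

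The receptor genes Notch1, Notch2 and Notch3, which encode the transmembrane receptors cut on ligand binding, had higher means in each group with XAV939 than in its partner without it, and none passed. Notch1 read 6.98, 7.0 and 6.96 untreated, 6.87, 7.03 and 6.95 with CHIR99021, 7.14, 7.30 and 7.24 with XAV939, and 6.99, 7.21 and 7.23 with both. Its XAV939 arrays all stood above the untreated ones, as they did for 9.48% of all genes. Replicate 1 with both compounds fell inside the range without XAV939. Over 6 against 6 arrays the Notch1 change was 0.22 (SE 0.06, limma adjusted p = 0.0843).

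Notch2 read 7.82, 7.53 and 7.67 untreated, 7.60, 7.61 and 7.74 with CHIR99021, 7.77, 7.99 and 7.86 with XAV939, and 7.92, 8.01 and 7.89 with both. The 3 arrays with both compounds stood above the untreated arrays, as for 13% of all genes, and above the CHIR99021 arrays, as for 8.92%. The XAV939 group overlapped the untreated group through 1 array of each. Its change with XAV939 was 0.25 over 6 against 6 arrays (SE 0.06, limma adjusted p = 0.0794).

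Notch3 read 6.29, 6.35 and 5.93 untreated, 6.06, 6.0 and 6.26 with CHIR99021, 6.44, 6.39 and 6.44 with XAV939, and 6.34, 6.23 and 6.50 with both. The XAV939 arrays lay close together above all untreated arrays, a separation found for 9.48% of all genes. The arrays with both compounds overlapped those with CHIR99021. The Notch3 change over 6 against 6 arrays was 0.24 (SE 0.08, limma adjusted p = 0.131). CHIR99021 changes over 6 against 6 arrays were -0.06 for Notch1, 0.02 for Notch2 and -0.08 for Notch3, with intervals that together ran from -0.24 to 0.15.

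Lfng, which encodes the sugar-adding enzyme lunatic fringe, was lower with CHIR99021. It read 6.01, 5.92 and 6.24 in untreated cells, a mean of 6.06 ± 0.16, and 5.68, 5.67 and 5.49 with CHIR99021, a mean of 5.61 ± 0.11. With XAV939 it read 5.88, 5.93 and 5.88, a mean of 5.90 ± 0.03, and with both 5.30, 5.64 and 5.83, a mean of 5.59 ± 0.27. All 6 arrays with CHIR99021 were lower than all 6 without it, by a margin of 5.83 against 5.88 at the nearest pair.

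Over those 6 against 6 arrays Lfng fell by 0.38 on the log2 scale (SE 0.08, 95% interval -0.55 to -0.20), a fold of 1.3 (limma adjusted p = 0.0256). It was the only member called in that comparison, in which 1.59% of all genes were called and 0.818% were called lower. Lower groups of 6 that did not overlap were found for 0.848% of all genes and among the members for Lfng alone. The call ended without untreated replicate 3, CHIR99021 replicate 3, XAV939 replicate 1 or 2, or replicate 2 of both compounds (adjusted p of 0.0518 to 0.0749).

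The 2 separate CHIR99021 comparisons, which share no array, gave Lfng -0.45 without XAV939 (SE 0.12, limma adjusted p = 0.118) and -0.31 with it (SE 0.12, limma adjusted p = 0.388). Neither passed. Both compounds against untreated gave -0.47 (SE 0.12, limma adjusted p = 0.0555). That change was not called in 21 of 24 other settings and was called in 3, and over all 24 it ran from -0.59 to -0.32 with adjusted p of 0.0362 to 0.218.

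Rbpj, which encodes the DNA-binding protein through which cleaved Notch acts, passed in no comparison. Its means were 9.21 ± 0.12 in untreated cells, 9.24 ± 0.07 with CHIR99021, 9.09 ± 0.15 with XAV939 alone and 9.23 ± 0.07 with both. The intervals over 6 against 6 arrays were -0.20 to 0.06 for XAV939 and -0.05 to 0.21 for CHIR99021.

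Of the target genes, Hes1, which encodes a transcriptional repressor, was higher with both compounds than in untreated cells. It read 6.92, 6.95 and 6.74 untreated, 7.0, 6.87 and 7.13 with CHIR99021, 7.08, 7.04 and 7.32 with XAV939, and 7.19, 7.56 and 7.30 with both. The arrays with both compounds stood above all untreated arrays, as for 13% of all genes, and above all CHIR99021 arrays, as for 8.92%. As for Dll1 the highest value was that of replicate 2 of both compounds.

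Hes1 rose with both compounds against untreated by 0.48 (SE 0.11, 95% interval 0.26 to 0.71), a fold of 1.40 (limma adjusted p = 0.0415). This call held in 11 of 24 other settings, with adjusted p between 0.0231 and 0.176. It ended under quantile normalization (adjusted p = 0.0696), in a fit to the compared groups alone (adjusted p = 0.0622), and without any 1 untreated replicate, CHIR99021 replicate 1, XAV939 replicate 1, or replicate 2 or 3 of both compounds (adjusted p of 0.0533 to 0.169). Over 6 against 6 arrays the XAV939 change of Hes1 was 0.31 (SE 0.07, limma adjusted p = 0.0716), and the values, 7.04 to 7.56 with XAV939 and 6.74 to 7.13 without, overlapped.

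Hey1, a repressor gene of the related Hey family, passed in no comparison. Its means were 6.47 ± 0.04 in untreated cells, 6.31 ± 0.07 with CHIR99021, 6.49 ± 0.17 with XAV939 alone and 6.43 ± 0.18 with both. The CHIR99021 arrays, at 6.39, 6.24 and 6.30, all lay under the untreated arrays, whereas the arrays with both compounds, at 6.23, 6.48 and 6.58, overlapped those with XAV939 alone. Groups of 3 that did not overlap, lower with CHIR99021, were found for 8.25% of all genes, and among the members for Dll3, Hey1 and Lfng.

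**Figure D2:**
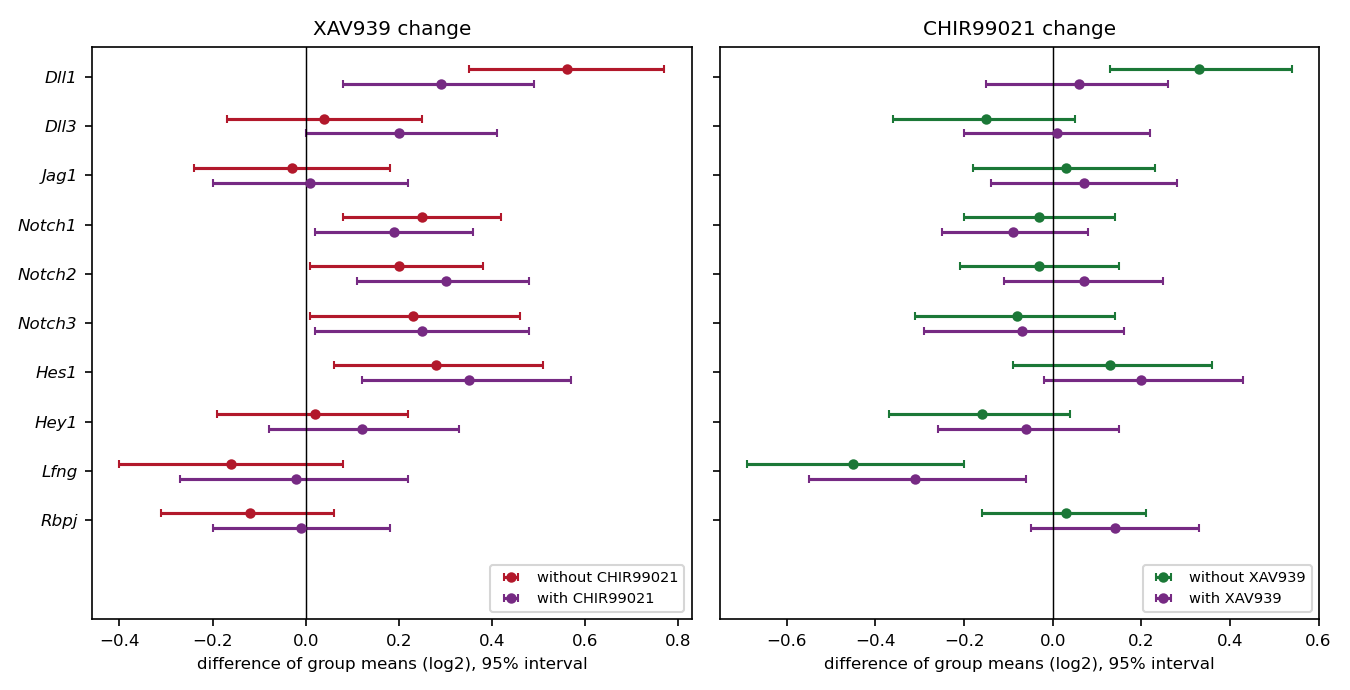
Difference of group means (x axis, log2) with its 95% interval for each gene (y axis), for XAV939 without and with CHIR99021 (left) and for CHIR99021 without and with XAV939 (right). The 2 comparisons in a panel share no array. Dll1 lies at 0.56 and 0.29 on the left, and Lfng at -0.45 and -0.31 on the right.

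The members were also read across the 2 XAV939 comparisons that share no array. In XAV939 against untreated, 5 of the 10 members were higher at an unadjusted p under 0.05, namely Dll1 (0.56), Notch1 (0.25), Notch2 (0.20), Notch3 (0.23) and Hes1 (0.28). In both compounds against CHIR99021 alone the same 5 were higher at that threshold, at 0.29, 0.19, 0.30, 0.25 and 0.35 in that order. None was lower in either. The median change of the 10 members was 0.12 in the first comparison and 0.20 in the second.

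Over all genes, 1184 (5.94%) were higher at that threshold in the first comparison and 1328 (6.66%) in the second. The 288 genes higher in both were 24.3% of the first list, 21.7% of the second and 1.44% of all genes. Brighter genes were higher more often, and among the 11592 genes above background, as all members are, the shares were 8.89% and 10.7%. The median change of those genes was 0.03 in each comparison.

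The spread of values over an array tended to be highest with both compounds, with a range that overlapped or met those of the other groups. The SD over all probes of an array ran from 2.135 to 2.184 in untreated cells, 2.161 to 2.191 with CHIR99021, 2.140 to 2.194 with XAV939 and 2.184 to 2.211 with both. With this SD as a covariate, an alternative chosen after the data were seen, the XAV939 change of Dll1 over 6 against 6 arrays was 0.39 (SE 0.07, limma adjusted p = 0.0347). The rises with both compounds against untreated no longer passed in that fit, at 0.54 for Dll1 (adjusted p = 0.0712) and 0.35 for Hes1 (adjusted p = 0.176). Nor did the Lfng change over 6 against 6 arrays, at -0.36 (adjusted p = 0.104).

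Beyond the 10 members, 102 of 110 listed genes of the pathway and of tissues where it acts were measured, 78 of them above background. For XAV939 over 6 against 6 arrays, none of the 102 was called higher and 1 was called lower, Axin2, a Wnt target that encodes a scaffold of beta-catenin destruction (-0.40, SE 0.07, limma adjusted p = 0.0375). Their median change was 0.01, against 0.17 for the 10 members and 0.03 for all genes above background. The 2 sets are not alike, since all 10 members were above background and were chosen with the Dll1 change with XAV939 alone known. For CHIR99021 over 6 against 6 arrays, 6 were called higher and 2 lower, against 0.777% and 0.818% of all genes. The lists hold Wnt genes such as Axin2 and were chosen with earlier results of these data known. These counts are therefore no test of Notch genes.

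The 6 higher genes were Axin2 (0.89, adjusted p = 2.39e-06), the ephrin receptor gene Epha4 (0.69, adjusted p = 0.000122), the Wnt modulator gene Dact1 (0.65, adjusted p = 0.000156), Id3, which encodes an inhibitor of bHLH factors (0.40, adjusted p = 0.0124), the bHLH repressor gene Bhlhe40 (0.31, adjusted p = 0.0446) and Spen, which encodes a co-repressor of RBPJ (0.27, adjusted p = 0.0419). The 2 lower genes were Myc, a growth regulator (-0.40, adjusted p = 0.00237), and Pax6, a neural transcription factor gene (-0.25, adjusted p = 0.0336). The first 3 of the higher genes stood on the list of presomitic mesoderm and segmentation clock genes, and no other measured gene of that list passed.

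No gene of the lists of other ligands, receptors, ligand uptake, receptor processing, nuclear co-factors, co-repressors, or receptor inhibitors passed for XAV939 over 6 against 6 arrays. The 6 other ligand genes had a median of 0.04, with Jag2 at 0.23 (adjusted p = 0.194). The receptor gene Notch4 lay under background. The 6 genes of ligand uptake had a median of 0.03, with the ubiquitin ligase genes Mib1 at 0.15 (adjusted p = 0.227) and Mib2 at 0.14 (adjusted p = 0.247).

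Of 14 genes of receptor glycosylation and cleavage 13 were measured, with a median of 0.10. The convertase gene Furin was at 0.22 (adjusted p = 0.102) and Mfng, a fringe gene like Lfng, at 0.20 (adjusted p = 0.165). The 8 nuclear co-factors had a median of 0.11, with the co-activator gene Maml1 at 0.19 (adjusted p = 0.116), and 13 of 15 RBPJ co-repressors a median of 0.01.

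The 10 genes of receptor inhibition and turnover had a median of 0.12. In both compounds against CHIR99021 alone 7 of them were higher at an unadjusted p under 0.05, as were 10.7% of all genes above background. In XAV939 against untreated 2 of them were higher and 1 was lower, where 8.89% of all genes above background were higher and 3.3% lower. Dtx4, a ubiquitin ligase gene of the Deltex family, was at 0.28 (adjusted p = 0.119) over 6 against 6 arrays, and Nrarp, a feedback inhibitor that is itself a Notch target, at -0.24 (adjusted p = 0.107).

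The further HES, HEY and direct target genes, 13 of 14 measured, had a median of -0.05 with XAV939, and 2 of them were lower at an unadjusted p under 0.05 against none higher, where 7.4% of all genes were lower and 9.53% higher. The presomitic mesoderm list, 22 of 25 measured, had a median of -0.07 and the proneural and early neural list, 14 of 15 measured, one of -0.07. Hes1 was thus the member of the HES and HEY family with a change past the test, and only with both compounds against untreated.

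**Figure D3:**
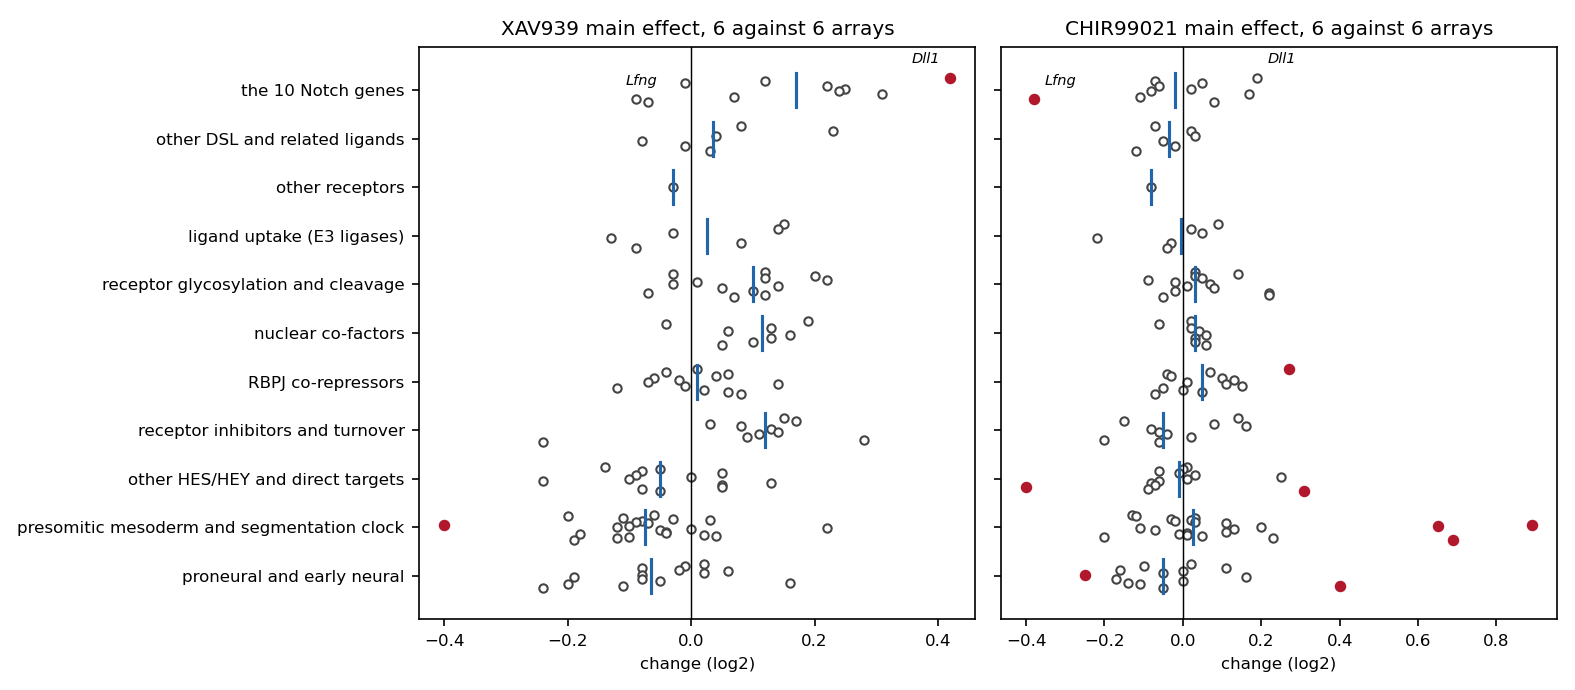
Change over 6 against 6 arrays (x axis, log2) for XAV939 (left) and CHIR99021 (right), with 1 point per gene in the rows for the 10 members and for each further list, filled where the change was called, and a bar at the median. In the left panel Dll1 at 0.42 and Axin2 at -0.40 are filled, and in the right panel Lfng is filled at -0.38 among the members.

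Genes whose 12 values were most like those of Dll1 were found by Pearson's r among 11591 other genes above background, as a description. The values share arrays and groups, so any gene that differs between the same groups has a high r. The 5 most like were Atrn (r = 0.944), which encodes the membrane protein attractin, Atf6 (r = 0.943), a sensor gene of stress in the endoplasmic reticulum, Nrk (r = 0.928), a kinase gene, Socs7 (r = 0.924), of the suppressor of cytokine signalling family, and Dcaf15 (r = 0.921), a substrate receptor gene of an E3 ubiquitin ligase. Their means ran in the order untreated, CHIR99021, then the 2 groups with XAV939. Atrn, for example, had means of 7.29 ± 0.13, 7.47 ± 0.05, 7.72 ± 0.04 and 7.65 ± 0.20 for untreated, CHIR99021, XAV939 and both.

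The 5 with the lowest r were Ccdc180 (-0.892), Olfr63 (-0.864), Gm11564 (-0.861), Cby3 (-0.858) and Tafa3 (-0.855). Olfr63 is an olfactory receptor gene, of the kind used to set the background measure. Among the members, Hes1 was the most like Dll1 (r = 0.863, place 49 of the 11591), followed by Notch2 (0.718), Notch1 (0.688) and Notch3 (0.452). Dll3 (0.144), Jag1 (0.135), Hey1 (-0.005) and Rbpj (-0.11) had values near 0, and Lfng had -0.502.

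**Figure D4:**
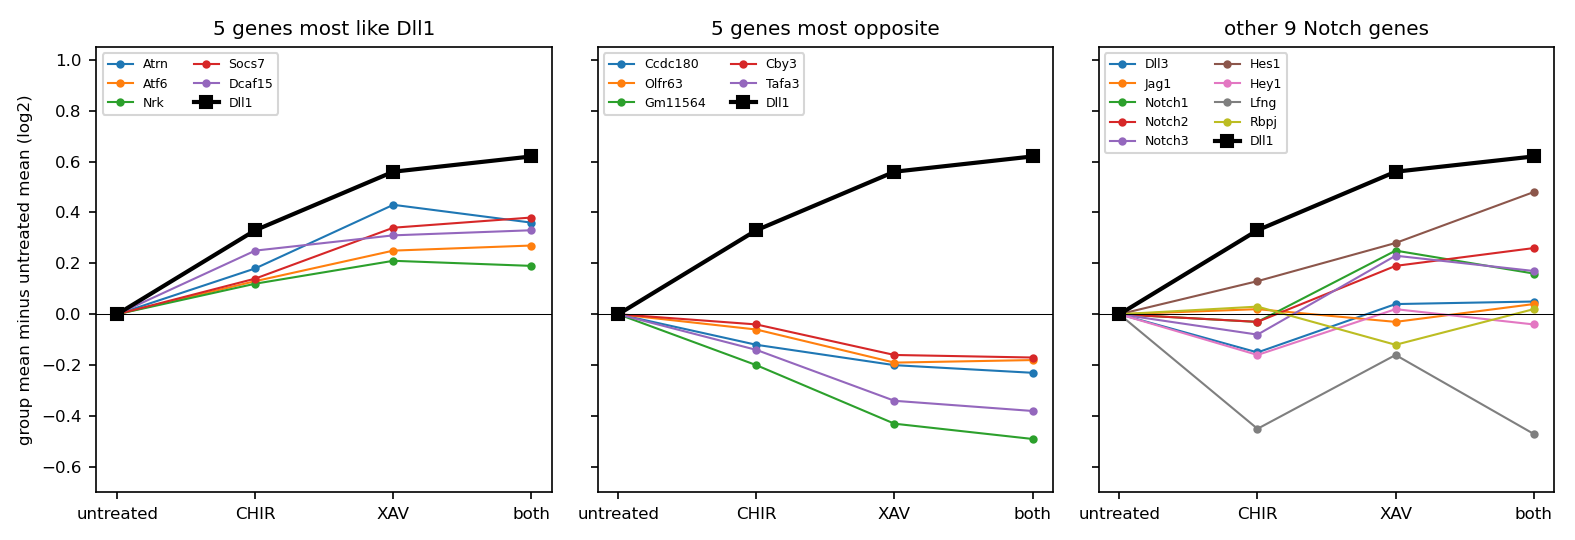
Group mean minus untreated mean (y axis, log2) in the 4 groups (x axis) for Dll1 (black squares) with the 5 genes most like it, the 5 with the lowest r and the 9 other members. Lines join groups of 1 gene and do not stand for a course in time. Dll1 lies 0.33, 0.56 and 0.62 above untreated with CHIR99021, XAV939 and both.

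The response to CHIR99021 itself was read from Axin2, Nodal and Sp5, as a check of the groups. With CHIR99021 alone Axin2 rose by 1.06 (SE 0.10, limma adjusted p = 4.83e-05) and Nodal, a TGF-beta family ligand gene, by 1.76 (SE 0.09, adjusted p = 2.39e-08). With XAV939 over 6 against 6 arrays Nodal fell by 0.60 (SE 0.06, adjusted p = 0.00136). Dll1 thus differed from Axin2 and Nodal in sign with XAV939. Sp5, a Wnt target with a mean of 4.66, under the background measure, had 0.80 with CHIR99021 over 6 against 6 arrays (adjusted p = 0.000175) and -0.43 with XAV939 (adjusted p = 0.0569).

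**Figure D5:**
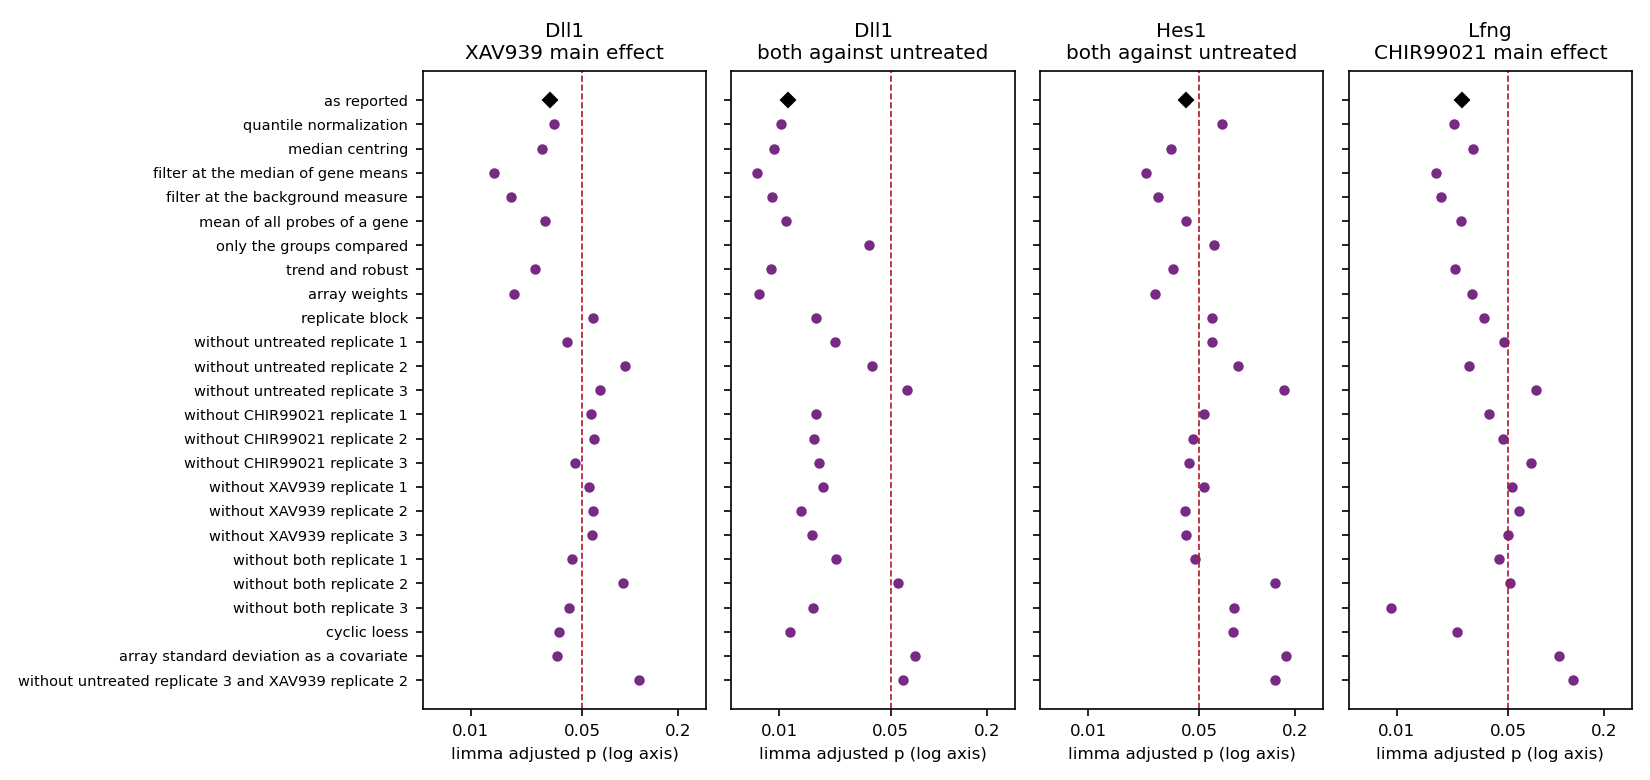
Limma adjusted p (x axis, log scale) of the 4 called member changes as reported (diamonds) and under each other setting (points, y axis), with a dashed line at 0.05. The points of Dll1 over 6 against 6 arrays for XAV939 lie between 0.014 and 0.113, those of Dll1 with both compounds against untreated between 0.00726 and 0.0712, those of Hes1 between 0.0231 and 0.176 and those of Lfng between 0.00924 and 0.127.

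The plot of adjusted p by setting shows how near each call was to the threshold. Dll1 with both compounds against untreated stayed called in 20 of 24 settings, Lfng with CHIR99021 over 6 against 6 arrays in 16 of 23, Dll1 with XAV939 over 6 against 6 arrays in 13 of 23 and Hes1 with both compounds against untreated in 11 of 24. The direction of these 4 changes was the same in every setting run.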

How the data were processed

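RNA of 12 samples was measured on 1-colour Affymetrix arrays, 1 per sample, in 4 groups of 3 from the sample labels. The deposited values were taken to be log2 expression, 1 per probe and array; the authors used Partek, per the submitters' processing notes, and how they corrected background and normalized is not given in the sources used here. No further normalization was applied. Arrays carry no read depth, and their number limits precision. Of 35399 probes, 21789 had 1 gene in the platform annotation, 1621 several and 11989 none listed; symbols were updated through RefSeq (GRCm38.p6), with 91 probes unmatched. The brightest single-gene probe stood for each gene.

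Group means were fitted with limma 3.58.1 in R 4.3.3 (two-sided moderated test, residual df 8, prior df 8.03) with 8 contrasts: 5 between groups, the interaction, and each compound over 6 against 6 arrays. Benjamini-Hochberg adjustment ran over all genes within a contrast. The fit was tested on simulated data. The members, lists, motifs and tests were chosen with earlier results of these data known, among them the Dll1 change with XAV939 alone. Named were all members, up to 4 genes per list by smallest p for each compound over 6 against 6 arrays, all called list genes, the 5 genes highest and lowest in r with Dll1, and Axin2, Nodal and Sp5. The reported fit did not pair samples by replicate number, and the labels do not say whether the numbers stand for a pairing. Alternatives were quantile normalization, median centring, 2 filters, the mean of a gene's probes, fits to the compared groups alone, a trended and robust eBayes, a replicate block, array weights and each array left out. Cyclic loess, array SD as a covariate and the joint omission of untreated replicate 3 and XAV939 replicate 2 were added after seeing the data.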

Additional observations from a re-analysis of the deposited data

How the results depend on the processing

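Each member's changes were recomputed with 12 other settings and with each of the 12 arrays left out; fits to the compared groups alone could not be made for the interaction and the comparisons of 6 against 6 arrays, which use all 4 groups. Of 1890 recomputed changes, 92 turned sign, none of them in a called change and none with a reported size over 0.07; all lay within 0.12 of 0, and with array SD as a covariate Dll3 (-0.12) and Rbpj (-0.10) turned with both compounds against untreated. The cause of the following differences was not tested. For both compounds against untreated, 2 members were called as reported, 3 with either filter on dim genes (Dll1, Hes1 and Lfng), 1 with quantile normalization, the compared groups alone, the replicate block or cyclic loess, 0 with array SD as a covariate or without untreated replicate 3 and XAV939 replicate 2, and 0 to 2 with 1 array left out; Dll1 was at 0.54 with the covariate, 0.56 without that pair, and 0.50 to 0.69 with 1 array left out. For XAV939 over 6 against 6 arrays, 1 member was called as reported, 4 with a filter at the median of gene means (Dll1, Hes1, Notch1 and Notch2), 2 with array weights (Dll1 and Hes1), 0 with the replicate block or without that pair, and 0 to 1 with 1 array left out; Dll1 was at 0.42 with the block (limma adjusted p = 0.0585), 0.40 without the pair, and 0.36 to 0.46 with 1 array left out. For CHIR99021 over 6 against 6 arrays, 1 member was called as reported, 0 with the covariate or without the pair, and 0 to 1 with 1 array left out. For XAV939 against untreated, array weights called 1 member, Dll1 (0.54), and 8 of all 19938 genes. Calls over all genes also rose in the settings that called more members. For XAV939 over 6 against 6 arrays they were 237 of 9969 genes with the filter at the median and 255 of 19938 with array weights, against 66 of 19938 reported. For both compounds against untreated they were 528 of 9969 with that filter and 446 of 11592 with the filter at background, against 225 of 19938 reported. Whether arrays with the same replicate number belong together is not known. Of pairs of arrays in different groups, 5 of 18 with the same number had deviations correlated over 0.1, and 9 of 36 with different numbers. Groups of 3 arrays are too small for these shares to decide it. The block changed no other call of a member than that of Dll1 with XAV939 over 6 against 6 arrays and that of Hes1 with both compounds against untreated (0.48, limma adjusted p = 0.0603). It left 3 calls over all genes for XAV939 over 6 against 6 arrays, against 66 reported. Over all genes, calls for XAV939 over 6 against 6 arrays ran from 2 to 255 against 66 reported, and the split of 42 higher to 24 lower became 4 to 10 with quantile normalization, 3 to 10 with cyclic loess, 64 to 23 with median centring and 42 to 49 with the covariate. For both compounds against untreated they ran from 10 to 550 against 225 reported, and the split of 163 to 62 became 59 to 44, 55 to 49, 324 to 58 and 10 to 10 in the same order. For CHIR99021 over 6 against 6 arrays they ran from 178 to 429 against 318, for CHIR99021 against untreated from 34 to 119 against 84, for both against XAV939 from 21 to 70 against 47, for both against CHIR99021 from 0 to 10 against 5, for XAV939 against untreated from 0 to 8 against 0, and for the interaction from 0 to 1 against 0.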
